A study of Mus musculus with 19 samples.

Results

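Gfer encodes the augmenter of liver regeneration, a sulfhydryl oxidase that carries FAD. It was followed here through every probe set that the platform annotation ties to Gfer and to no other gene. There were 2 such probe sets, 1452272_a_at and 1426995_a_at, and Gfer is 1 of 18193 genes with a probe set of that kind. Gfer was picked with its differences between these groups already known. Its levels and differences are therefore given as a description, with no test.

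In the space between the mitochondrial membranes, Gfer hands electrons from the import receptor Chchd4 (Mia40) to cytochrome c. This relay puts disulfide bonds into small cysteine-rich proteins as they enter the organelle. A shorter form of the protein was first described as a factor in extracts of regenerating liver that lets hepatocytes proliferate after resection, and the longer form is abundant in hepatocytes.

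The arrays came from livers of 19 male C57BL/6 mice aged 10 to 12 weeks, each killed 2 h after 85% of its liver was removed. The groups were 5 wild-type mice (WT), 6 that lacked Ager, the receptor for advanced glycation end products (Ager_null, titled RKO), 4 that lacked Myd88, an adaptor of Toll-like and interleukin 1 receptors (Myd88_null, titled MKO), and 4 that lacked both (Ager_Myd88_null, titled MRKO). The study asked what these deletions do to the liver's response to resection. All groups were resected, and unresected liver was not analysed here. The labels do not tell how the null alleles were made, how far they were backcrossed or whether the mice were littermates. The labels describe RNA per mouse, so p-values below measure the spread between these samples. In whole liver RNA, fewer cells of a type and less RNA per cell cannot be told apart.

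Values are log2 levels per probe set, as the authors deposited them. Levels of different probe sets are not on a common scale, so differences were taken for each probe set across groups. Where probe sets are subtracted or averaged below, only the change across groups is read. The filter for tests asked for a value above log2 4 in 4 or more livers. It kept 13505 probe sets, both of Gfer among them.

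The libraries' labels were checked as far as the arrays allow. Myd88 averaged 5.55 ± 0.29 (SD, n = 5) in WT and 5.91 ± 0.38 (n = 6) in Ager_null livers, but 3.49 ± 0.34 (n = 4) in Myd88_null and 3.45 ± 0.58 (n = 4) in Ager_Myd88_null livers. Ager itself was under the filter in every group, with means from 3.10 to 3.37, so it checks nothing. The extraction text in the labels names glomeruli while the tissue label says liver. All 11 hepatocyte markers on the array were over the filter, with a median level of 14.8. Of 11 kidney and glomerulus markers 1 was over it (Podxl, which endothelium also expresses), at a mean of 4.11. The mean log2 level of none of the 9 cell marker lists separated the livers with Ager from those without. That rule asks for no overlap. T and NK cells had 0 markers over the filter, and kidney and cholangiocytes 1 each. Of 11 Kupffer cell and macrophage markers 10 lay below 0 in Myd88_null against WT (median -0.74, all genes 0.06). Limma called 0 (adjusted p under 0.05), and 2 had an unadjusted p under 0.05. Of 3 tested B and plasma cell markers it called 1 in each null group against WT. All-gene shares were 1.26%, 0.399% and 0.317% in Ager_null, Myd88_null and Ager_Myd88_null. Myd88_null replicate 4 stood apart from the other arrays, with a median correlation to them of 0.9654 against at least 0.9785.

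Gfer lies on mouse chromosome 17, the chromosome of Ager, with 420 annotated genes between them. On the other strand its near neighbour Noxo1, an organiser subunit of an NADPH oxidase, starts 77 bases from the annotated start of Gfer. That stretch is shown because it separates the start of Gfer from that of the closest annotated gene on that side. It is the reference sequence from RefSeq at chr17:24696157-24696233, minus strand, build GRCm38.p6, written 5′ to 3′ towards Gfer.

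Gfer upstream stretch: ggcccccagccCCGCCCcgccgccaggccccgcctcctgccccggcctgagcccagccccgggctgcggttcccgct

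The capitals mark a match to the GC box, letters GGGCGG, here on the opposite strand. The same window before the start held a GC box on either strand in 22.2% of 27025 RefSeq promoters. G and C made up 85.7% of the Gfer stretch, and 98.7% of promoters had less. It held 8 CpG dinucleotides, against a median of 2. Neither strand matched CCAAT (found in 15.3% of promoters), the antioxidant response core TGACNNNGC (3.76%) or the EGR site GCGNGGGCG (2.56%). These letters are the reference strain's and were not read from the mice.

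The brighter probe set, 1452272_a_at, read 10.81, 10.69, 10.29, 10.71 and 10.65 in the 5 WT livers. In Myd88_null livers it read 10.89, 10.49, 10.47 and 10.42. The ranges of these 2 groups, which both keep Ager, overlapped. In the 6 Ager_null livers it read 10.24, 10.22, 9.83, 9.45, 9.64 and 9.75, with a median of 9.79. In Ager_Myd88_null livers it read 9.74, 9.54, 9.81 and 9.73. The 9 livers with Ager held all values from 10.29 to 10.89, and the 10 without it held all values from 9.45 to 10.24, with no overlap.

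The other probe set, 1426995_a_at, ran the opposite way. It read 5.59, 5.54, 5.72, 4.64 and 5.81 in WT livers. In Myd88_null livers it read 5.91, 5.31, 5.86 and 5.80. Apart from WT replicate 4, these 9 arrays lay within 5.31 to 5.91. In Ager_null livers it read 7.42, 7.25, 6.74, 7.55, 8.09 and 8.28, with a median of 7.49. The Ager_Myd88_null livers read 8.35, 8.09, 8.53 and 7.53. The livers with Ager reached 5.91 at most and those without it 6.74 at least, so the same samples that were low on one Gfer probe set were high on the other.

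**Figure D1:**
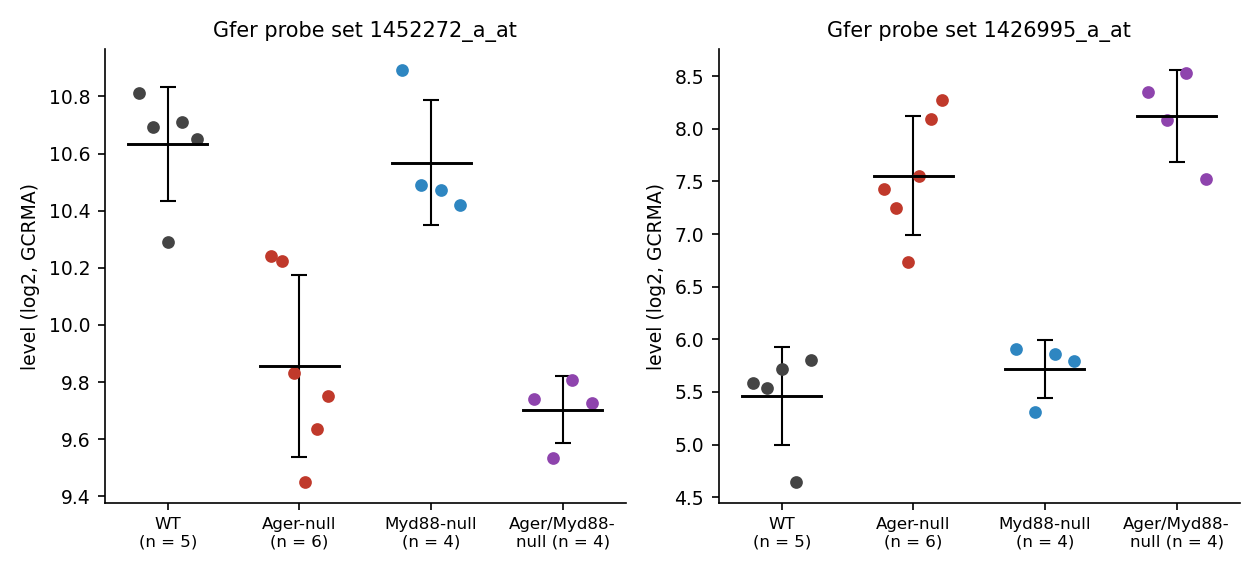
Level of each Gfer probe set (log2, y axis, separate scales that do not start at 0) in the 4 genotypes, with 1 point per liver, the mean as a line and ±1 SD as bars. On the left the 10 livers without Ager reach 10.24 at most and the 9 with Ager start at 10.29. On the right the order is turned, with livers without Ager at 6.74 or above.

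Ordered by mean, 1452272_a_at was highest in WT (10.63 ± 0.20), then Myd88_null (10.57 ± 0.22), Ager_null (9.86 ± 0.32) and Ager_Myd88_null (9.70 ± 0.12). The first 2 in that order overlapped, as did the last 2, and the gap fell between Myd88_null and Ager_null. For 1426995_a_at the order was Ager_Myd88_null (8.12 ± 0.44), Ager_null (7.55 ± 0.56), Myd88_null (5.72 ± 0.28) and WT (5.46 ± 0.47), with the gap at the same place.

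As differences of log2 means with the standard error of the fit, 1452272_a_at in Ager_null livers stood at -0.78 ± 0.14 from WT, which is 58.4% of the WT level. In Ager_Myd88_null livers it stood at -0.93 ± 0.16 from WT (52.5% of it) and at -0.87 ± 0.17 from Myd88_null (54.9%). The 3 comparisons in which only one side has Ager thus gave differences of like size. They are not independent, since the first 2 share the WT livers and the last 2 the Ager_Myd88_null livers. Probe set 1426995_a_at was higher by 2.09 ± 0.26 (4.27-fold) in Ager_null than in WT. It was higher by 2.66 ± 0.29 (6.33-fold) in Ager_Myd88_null than in WT, and by 2.40 ± 0.31 (5.29-fold) than in Myd88_null. These placed it 9th, 3rd and 2nd among the rises of all tested probe sets. The falls of 1452272_a_at were more modest, at places 126, 53 and 320 among falls.

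For scale, 0.74% of tested probe sets were called (adjusted p under 0.05) in Ager_null against WT, 0.267% in Ager_Myd88_null against WT and 0.148% in Ager_Myd88_null against Myd88_null. The groups did not overlap for 3.39%, 3.42% and 5.41% of tested probe sets. Both Gfer probe sets were in the non-overlapping share each time. Since Gfer was chosen on these comparisons, nothing is read from that.

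With Ager kept, loss of Myd88 moved neither Gfer probe set beyond the spread of the livers. Probe set 1452272_a_at differed by -0.06 ± 0.16 and 1426995_a_at by 0.26 ± 0.29 between Myd88_null and WT, and the groups overlapped on both. Between Ager_Myd88_null and Ager_null the differences were -0.15 ± 0.15 and 0.57 ± 0.28, again with overlap. The interaction is the Ager_Myd88_null minus Myd88_null difference, less the Ager_null minus WT difference. It was -0.09 ± 0.22 for 1452272_a_at and 0.31 ± 0.41 for 1426995_a_at. On neither probe set did the difference between livers without and with Ager vary with Myd88 status beyond its error. Errors of this size still leave room for such a variation. Over all genes 2.41% were called on this interaction.

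Taking one probe set from the other within each liver removes a shift of the array that is equal in log2 for both. A shift that differs between the 2 probe sets is not removed. The value of 1452272_a_at minus that of 1426995_a_at ran from 4.57 to 6.07 in WT and from 4.62 to 5.18 in Myd88_null livers. It ran from 1.47 to 3.09 in Ager_null and from 1.28 to 2.20 in Ager_Myd88_null livers. Within Ager_null it was 2.82, 2.97 and 3.09 in replicates 1 to 3, and 1.90, 1.55 and 1.47 in replicates 4 to 6. Its size in any one liver has no meaning of its own, but its change does. It fell by 2.87 from WT to Ager_null, by 3.59 from WT to Ager_Myd88_null and by 3.27 from Myd88_null to Ager_Myd88_null, and no liver without Ager reached the range of livers with it.

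Over the 19 arrays the probe sets had a Pearson r of -0.86 and a Spearman rho of -0.81. The points fall into 2 clusters by genotype, so this describes the gap between clusters. With each group's mean taken off, r was -0.20 and rho -0.21. The opposite movement of the pair lay mainly between genotypes and was weak within groups when all groups were pooled. Within Ager_null it was seen between replicates 1 to 3 and replicates 4 to 6. The first lay at 9.83 or above on 1452272_a_at and the second at 9.75 or below. On 1426995_a_at the first lay at 7.42 or below and the second at 7.55 or above.

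**Figure D2:**
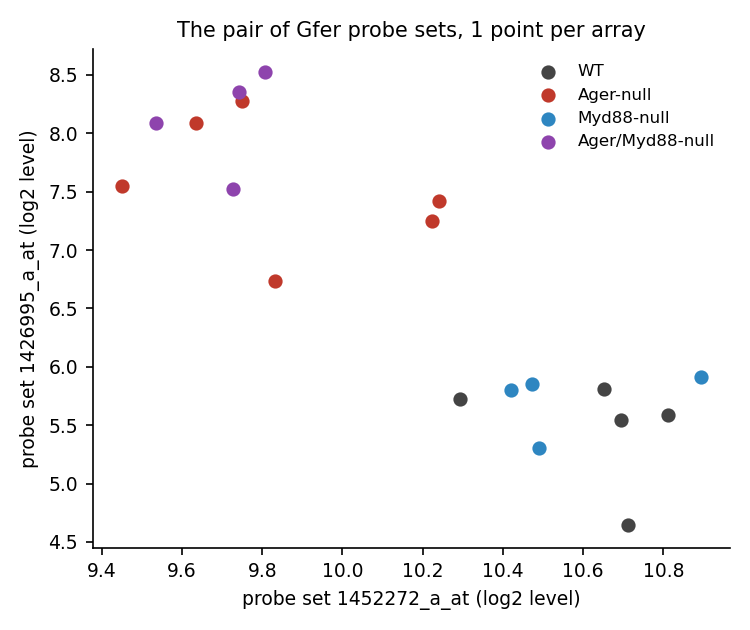
The 2 Gfer probe sets set against each other (log2 levels on both axes), 1 point per liver, coloured by genotype. The livers with Ager sit at lower right and those without Ager at upper left. Pooled over the colours, little slope is left after taking off group means (r of -0.20).

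The sample descriptions carry an S number whose meaning is not stated. All Ager_null livers have S numbers from 13 to 20, while WT and Myd88_null livers are spread over 1 to 20. Ager_Myd88_null livers have 5, 6, 11 and 12, so they share no range with Ager_null livers. Every difference between these 2 groups, here and for the genes below, therefore goes along with a difference in S range. Of WT livers only replicate 5 falls in the range from 13 to 20. Against that liver alone, Ager_null livers stood at -0.80 on 1452272_a_at and 1.75 on 1426995_a_at. Ager_Myd88_null livers could be set against WT at S numbers from 1 to 6 and from 7 to 12, with 2 livers on each side in both. There the differences were -1.11 and -0.73 on 1452272_a_at, and 2.65 and 2.84 on 1426995_a_at. Against the 2 and 1 Myd88_null livers in these ranges they were -1.05 and -0.70, and 2.61 and 2.17. Both probe sets thus kept their directions within every range that held livers with and without Ager.

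Leaving out each liver in turn changed no direction in the 3 comparisons of Ager loss. On 1452272_a_at the Ager_null difference from WT then ran from -0.86 to -0.70, and that of Ager_Myd88_null from -1.01 to -0.87. On 1426995_a_at the ranges were 1.89 to 2.26 and 2.46 to 2.86. The 1 alternative that turned a sign was to average the pair of probe sets. The mean was then higher by 0.66 in Ager_null and by 0.87 in Ager_Myd88_null than in WT, so a single number for Gfer takes its direction from the choice of probe set.

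How often a gene's probe sets part in this way was counted over the 3267 genes with at least 2 tested probe sets, a comparison chosen after the Gfer values were seen. In each of the 3 comparisons of Ager loss, Gfer was the single gene with one probe set lying wholly above the other group and another wholly below it, which is 0.0306% of these genes. Its span, the highest probe set difference minus the lowest, ranked first in all 3. The spans were 2.87, 3.59 and 3.27, against medians over genes of 0.21, 0.17 and 0.20. The next largest were 1.56 for Zmynd8, 2.32 for Cxcl1 and 2.41 for Ccnf. Every tested probe set of Cxcl1 and of Ccnf lay below 0 there, so the size parted and the direction did not. In Myd88_null against WT the Gfer span was 0.32, at rank 1008.

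**Figure D3:**
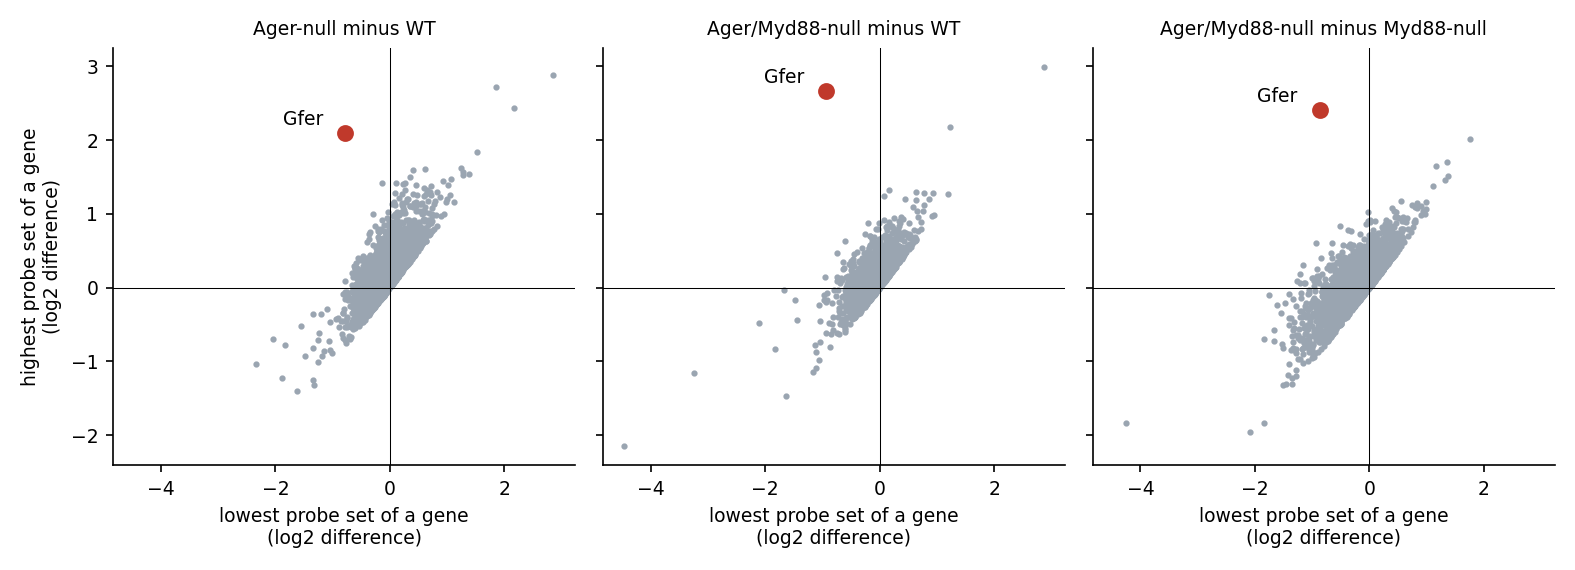
Each point is a gene with at least 2 tested probe sets, placed by its lowest (x axis) and highest (y axis) probe set difference in log2, for the 3 comparisons of Ager loss. Most genes lie near the diagonal, where probe sets move alike. Gfer lies alone at upper left, with one probe set lower by 0.78 to 0.93 and the other higher by 2.09 to 2.66.

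The deposited files and the annotation used here do not place the probes of either set on the 3 RefSeq transcripts of Gfer. Which transcript or exon each probe set reads was therefore not tested.

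Of the 20 annotated genes on each side of Gfer, 31 had a probe set and 16 passed the filter as genes. In this and the following counts a gene is represented by its brightest probe set, and 8515 genes were tested. In Ager_null against WT 0 of the 16 neighbours were called by limma (5 had an unadjusted p under 0.05), where 1.26% of all genes were. In Ager_Myd88_null against WT 2 were called, against 0.317% of all genes. In Ager_Myd88_null against Myd88_null 1 was called, against 0.153%.

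The neighbours' median differences in these 3 comparisons were -0.01, 0.14 and 0.08. Over all tested genes the medians were 0.02, 0.07 and -0.00.

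Meiob, a DNA-binding protein of meiotic recombination, is the 12th annotated gene from Gfer towards Ager. It averaged 6.19 ± 0.47 in WT, 7.16 ± 0.37 in Ager_null, 6.05 ± 0.67 in Myd88_null and 7.96 ± 0.34 in Ager_Myd88_null livers. It rose by 1.77 ± 0.29 in Ager_Myd88_null against WT (adjusted p = 0.0062) and by 1.91 ± 0.31 against Myd88_null (adjusted p = 0.018). The first call held without any one array, and the second was lost without Myd88_null replicate 3 or 4 or Ager_Myd88_null replicate 3 (adjusted p up to 0.11), and with the S number range or the replicate number as a block (0.056 and 0.055). In Ager_null against WT its difference was 0.97 (adjusted p = 0.067).

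Tbl3, a component of the machinery that processes ribosomal RNA, is the closest tested gene on the Ager side, past Noxo1. It rose by 1.02 ± 0.19 in Ager_Myd88_null against WT (adjusted p = 0.019), from 5.43 ± 0.31 to 6.44 ± 0.20. That call was lost without WT replicate 3, Ager_Myd88_null replicate 3 or replicate 4 (adjusted p up to 0.11), after quantile normalization (0.071) and with the mean of its probe sets (0.12). On the other side the closest tested gene is Zfp598, which encodes a ubiquitin ligase that senses collided ribosomes, and its difference in Ager_null against WT was 0.64 (adjusted p = 0.071). Noxo1 and Syngr3, the genes directly beside Gfer, were both under the filter (Noxo1 with group means of 2.33 to 2.51).

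**Figure D4:**
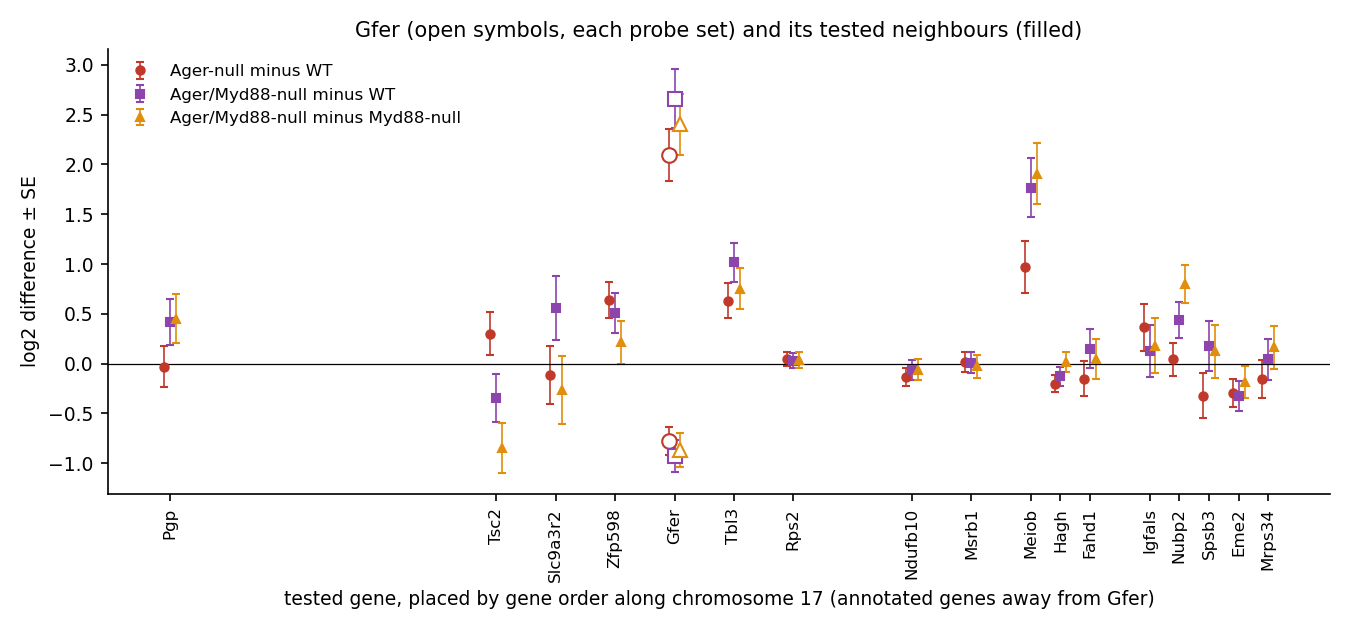
Log2 difference ± SE in the 3 comparisons of Ager loss for the 16 tested neighbours (filled) and for each Gfer probe set (open), placed by gene order along chromosome 17 with Ager to the right. Gfer appears both above 2.0 and below -0.7, Meiob rises by up to 1.91, and most other neighbours lie near 0.

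Over the whole of chromosome 17, with the neighbours above counted in, 399 genes other than Gfer were tested. Of these 16 (4.01%) were called in Ager_null against WT, 11 (2.76%) in Ager_Myd88_null against WT and 6 (1.5%) in Ager_Myd88_null against Myd88_null. Over all genes the shares were 1.26%, 0.317% and 0.153%. Whether the stretch of chromosome carried with the Ager allele has a part in the Gfer values was not tested.

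The genes whose pattern was most like that of Gfer were taken by Pearson r with 1452272_a_at over the 19 arrays. The arrays share their genotype groups, so these values describe a common grouping and carry no p. The 6 highest were Zfp945 (r = 0.95), Riok2 (0.87), Zfp944 (0.86), Ccnf (0.83), Tedc2 (0.82) and Zfp995 (0.81). All 6 lie on chromosome 17, which holds 4.70% of the tested genes. Of the 6 with the lowest r, 5 lie there too, namely Abca3 (-0.93), Glo1 (-0.87), Cbs (-0.83), Anks1 (-0.82) and H2-Bl (-0.80). Sqstm1 (-0.83), the autophagy receptor p62, is on chromosome 11.

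Zfp945, a zinc finger gene, averaged 4.76 ± 0.28 in WT, 3.17 ± 0.74 in Ager_null, 4.82 ± 0.60 in Myd88_null and 2.95 ± 0.60 in Ager_Myd88_null livers. Its group order matched that of 1452272_a_at apart from the 2 highest groups, which overlapped. Its means in both groups without Ager are under log2 4, so it passed the filter through the livers with Ager. Zfp944 likewise averaged 3.88 in Ager_Myd88_null livers. Abca3, a lipid transporter, averaged 6.86 ± 0.59, 9.71 ± 0.51, 7.96 ± 0.99 and 9.72 ± 0.13 in the same order of groups. It lies 25 annotated genes from Gfer on the side away from Ager, outside the window of neighbours above. Abca3 is among the chromosome 17 genes called in Ager_null and in Ager_Myd88_null against WT, with differences of 2.85 and 2.87. Glo1, which detoxifies methylglyoxal, averaged 13.01 in WT and 13.16 in Myd88_null against 13.84 in Ager_null and 13.78 in Ager_Myd88_null livers.

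Taking off each group's mean left another set. The highest r with 1452272_a_at was then 0.93 for Cd302, a C-type lectin receptor, 0.89 for Fam220a and 0.88 for Ifitm1. The lowest was -0.88 for Mob3b, -0.86 for Cdhr5 and -0.83 for Cyp2b10, a cytochrome P450 induced by xenobiotics. None of these 6 is on chromosome 17. Zfp945, whose means without Ager are under log2 4, kept an r of 0.80 and Abca3 one of -0.79 within groups. Glo1 fell to -0.31.

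The same listing was made for 1426995_a_at after its values were seen. Its highest r were with Glo1 (0.91), Tubb5 (0.88), H2-Bl (0.88), Abca3 (0.84), Meiob (0.84) and Cbs (0.78), all on chromosome 17. The lowest were with Zfp945 (-0.88), Riok2 (-0.87), Zfp944 (-0.87), Slc16a12 (-0.85), Tedc2 (-0.81) and Ccnf (-0.78), of which Slc16a12 is on chromosome 19. Every gene on this list had an r of the other sign with 1452272_a_at.

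The proteins that Gfer serves were followed as a list of 34 genes of the disulfide relay, 31 of them tested. Chchd4, its direct partner, averaged 8.59 ± 0.16 in WT, 8.51 ± 0.13 in Ager_null, 8.39 ± 0.23 in Myd88_null and 8.64 ± 0.33 in Ager_Myd88_null livers. Its differences ran from -0.20 to 0.25 over the 5 comparisons of 2 groups and none was called. Cycs, the cytochrome c that takes the electrons, differed by -0.16 ± 0.09 in Ager_null and by -0.18 ± 0.10 in Ager_Myd88_null against WT, also uncalled. Aifm1, which binds Chchd4 and stabilises it, stood at 0.18 ± 0.10 and -0.05 ± 0.11.

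Of the 31 genes, 2 were called in at least 1 of the 5 comparisons, against 3.66% of all tested genes. Cmc1, an assembly factor of cytochrome c oxidase, averaged 10.73 ± 0.18 in WT and 10.30 ± 0.12 in Ager_null livers. It fell by 0.44 ± 0.10 in that comparison (adjusted p = 0.042) and rose by 0.44 ± 0.10 in Ager_Myd88_null against Ager_null (adjusted p = 0.043), where 2.44% of all genes were called. These calls were lost without any one of 12 and of 10 of the 19 arrays (adjusted p up to 0.12). Both were lost with the S number range as a block and with no filter, and the first also with the mean of its probe sets (adjusted p up to 0.11). Cox19, another assembly factor of that enzyme, rose by 0.65 ± 0.12 in Ager_Myd88_null against Ager_null (adjusted p = 0.016), from 10.18 ± 0.19 to 10.83 ± 0.21. Without Ager_Myd88_null replicate 3 its adjusted p was 0.094, and with the S number range as a block 0.29.

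In Ager_null against WT 26 of the 31 relay genes lay below 0, with a median of -0.14 where all tested genes had 0.02. The lowest was Chchd6, a subunit of the complex that shapes the cristae, at -1.09 ± 0.31 (adjusted p = 0.070), and next came Timm9, a chaperone of carrier import, at -0.50 ± 0.19 (adjusted p = 0.15). In Myd88_null against WT 28 lay below 0, with a median of -0.13 against 0.06 for all genes. In Ager_Myd88_null against WT only 12 did, with a median of 0.04 against 0.07. The list's median was thus below that of all genes in both single deletions and near it in the double deletion, whereas each Gfer probe set stood apart from WT in Ager_null and in Ager_Myd88_null livers. On the interaction 3 of the 31 lay below 0, with a median of 0.32 against -0.02 for all genes. Limma called 0 of them there, where 2.41% of all genes were called, and 12 had an unadjusted p under 0.05.

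**Figure D5:**
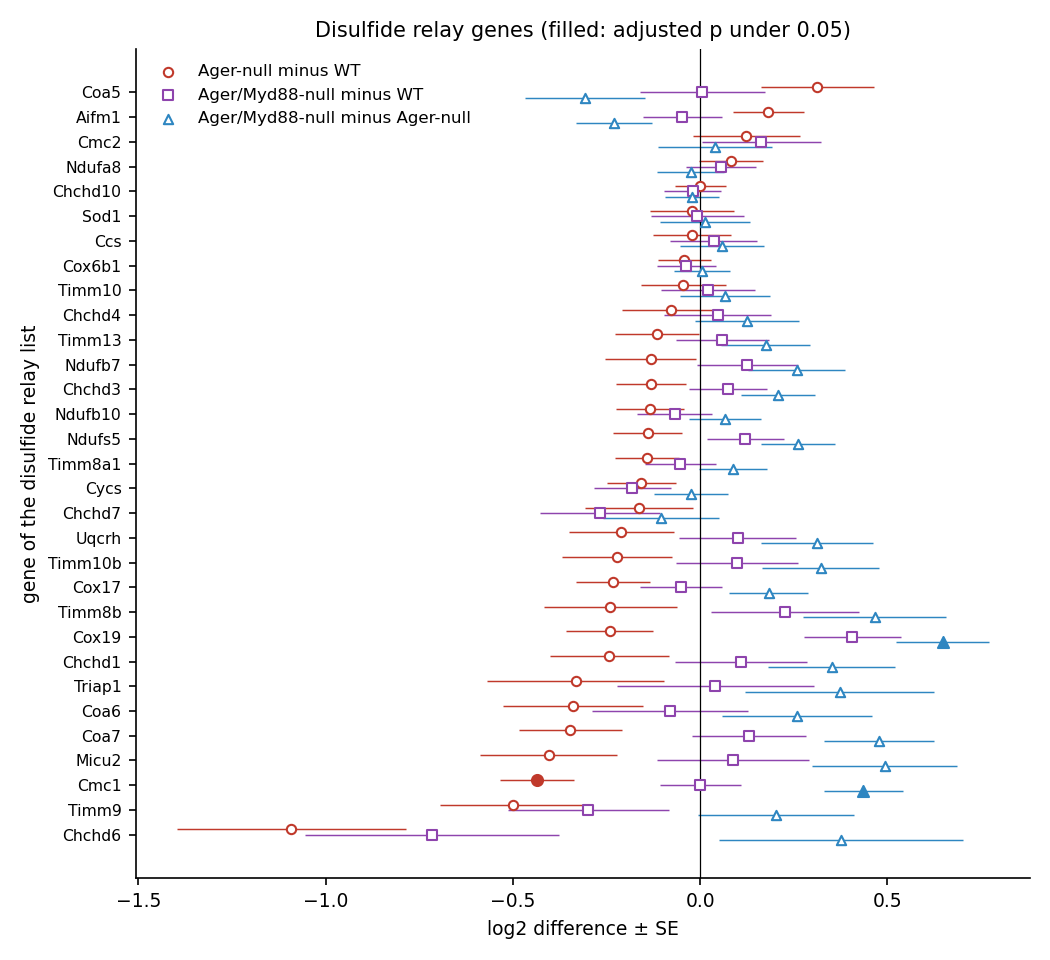
Log2 difference ± SE of the 31 tested relay genes in Ager_null minus WT (circles), Ager_Myd88_null minus WT (squares) and Ager_Myd88_null minus Ager_null (triangles), sorted by the first. Filled symbols mark the 2 called genes, Cmc1 and Cox19. Most circles lie below 0 and most triangles above it.

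Oxidases and foldases of the secretory route do related chemistry in another compartment. Of 9 such genes 8 were tested. Qsox1, which shares its oxidase fold with Gfer, fell by 0.63 ± 0.10 in Ager_Myd88_null against Ager_null (adjusted p = 0.0041), a call that held without any one array and was lost with the mean of its probe sets (adjusted p = 0.055). Pdia6, a protein disulfide isomerase, rose by 0.56 ± 0.13 in Ager_null against WT (adjusted p = 0.049) and fell by 0.59 ± 0.14 in Ager_Myd88_null against Ager_null (adjusted p = 0.045). Those calls were lost without any one of 13 and of 11 arrays, and both with the S number range as a block and with no filter, the first also with median centring (adjusted p up to 0.17). Ero1b, which oxidises the isomerases, stood at 0.69 ± 0.18 in Ager_null against WT (adjusted p = 0.057). All 8 lay above 0 there, with a median of 0.27 against 0.02 for all genes. In Ager_Myd88_null against Ager_null 6 lay below 0, with a median of -0.40 against 0.04. Markers of stellate cells and fibroblasts moved in part with this list. Of 8 such markers 6 were tested (Col1a1 and Des were under the filter). All 6 lay above 0 in Ager_null against WT, with a median of 0.61 against 0.02 for all genes. Of them 1 was called, where 1.26% of all genes were. In Ager_Myd88_null against Ager_null 5 lay below 0, with a median of -0.15 against 0.04. There 1 was called, where 2.44% of all genes were. Their mean log2 level ran from 6.97 to 7.51 in WT, 7.35 to 8.02 in Ager_null, 7.18 to 7.70 in Myd88_null and 7.36 to 7.83 in Ager_Myd88_null livers. In Ager_null against WT, liver endothelium markers had a median of 0.23, with 3 of 8 below 0. Kupffer cell and macrophage markers had one of -0.26, with 10 of 11 below 0. Hepatocyte markers had one of 0.07, with 1 of 11 below 0. The part of these cell types in the values of the folding genes was not tested.

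Gfer has also been tied to the export of iron and sulfur for clusters in the cytosol. Of 23 genes of cluster assembly 19 were tested and 1 was called, against 3.66% of all genes in at least 1 of the 5 comparisons, so the count is near that share. Lyrm4, the stabilising partner of the cysteine desulfurase, rose by 1.20 ± 0.31 in Ager_Myd88_null against Ager_null (adjusted p = 0.049), and the call was lost without any one of 14 arrays (adjusted p up to 0.17), after quantile normalization, with the floor at log2 4 and with no filter (up to 0.072 in these 3). Ciapin1, which passes electrons to the cytosolic assembly machinery, averaged 7.55 ± 0.32 in WT and 6.73 ± 0.33 in Ager_null livers (adjusted p = 0.056).

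A list of 24 signals of liver regeneration had 14 tested genes. The called gene was Il6ra, the interleukin 6 receptor subunit, which rose by 1.55 ± 0.32 in Myd88_null against WT (adjusted p = 0.035). It went from 4.58 ± 0.22 in WT, near the filter of log2 4, to 6.13 ± 0.81 in Myd88_null livers. In that comparison 0.399% of all genes were called, and the Il6ra call was lost without any one of 6 arrays, after quantile normalization (adjusted p = 0.068), with the replicate block (0.086) and with the mean of its probe sets (0.054). In Ager_null against WT 0 were called by limma (2 had an unadjusted p under 0.05). Tgfa, a growth factor for hepatocytes, stood at 0.50 ± 0.15 (adjusted p = 0.082) there and Myc at 0.77 ± 0.31 (adjusted p = 0.17). Of 7 factors reported to act on the Gfer gene, 6 were tested and limma called 0 in the 5 comparisons, with 2 at an unadjusted p under 0.05 in Myd88_null against WT and 1 in Ager_Myd88_null against Myd88_null. As 3.66% of all genes were called in at least 1 of these comparisons, a count of 0 among 6 is no result about the factors. Hnf4a, a hepatocyte master regulator, differed by 0.19 ± 0.11 in Ager_null against WT, and Egr1, an immediate early factor, by 0.34 ± 0.30.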

How the data were processed

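Values are on the log2 scale, 1 per probe set and array, as deposited by the authors, and were used unchanged. The submitters' processing notes name GCRMA 2.16, a method that subtracts background by probe sequence, normalizes arrays to each other and combines the probes of a set. RNA was amplified with a 3' IVT kit per the labels' protocols, so signal comes mostly from transcript ends. Other steps, the array's genome build among them: not given in the sources used here. Values ran from 0.743 to 15.6, with array medians from 2.75 to 2.83. Array number limits the precision.

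Of 45101 probe sets, 64 were controls, 34945 had 1 symbol, 932 several and 9160 none. Probe sets without a single symbol were not used. Of 18193 genes, 18032 matched the RefSeq table (GRCm38.p6) by gene ID. Genes and probe sets over log2 4 on at least 4 arrays were fitted with limma 3.58.1 in R 4.3.3 (lmFit, eBayes), 4 groups in 1 fit, two-sided, with Benjamini-Hochberg adjustment over all features of a comparison, called at 0.05. The fit was tested on simulated data. Errors of means are SDs and of differences standard errors. The closest pair of arrays within a group had a root mean square difference of 0.328, so none repeated another.

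Gfer and the gene lists were chosen with earlier results of these data known. The genes named were Ager, Myd88, each Gfer probe set, the called neighbours and the closest measured one on each side, from each list the called members and up to 4 with the smallest p in Ager_null against WT, and the genes most and least like 1452272_a_at (6 each over all arrays, 3 each within groups). Zmynd8, Cxcl1, Ccnf spans, the list for 1426995_a_at, Chchd4, Cycs, Aifm1, Hnf4a and Egr1 were added for their role or after their values were seen. Alternatives covered scaling, floor, filter, probe set choice, blocks and each array left out.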

Additional observations from a re-analysis of the deposited data

Results flagged for a closer look

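Over 23 quantities in 92 groups of livers, 6 single arrays stood far from the rest of their group by Dixon's criterion, which chance meets in about 1 of 20 groups. For Gfer, 1452272_a_at read 10.893 in Myd88_null replicate 1, where the other Myd88_null livers ran from 10.42 to 10.489. Probe set 1426995_a_at read 4.6436 in WT replicate 4, where the other WT livers ran from 5.5409 to 5.8061. Both lay on the far side from the livers without Ager, so the groups are further apart with them than without them.

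Among the genes most like Gfer, Glo1 read 13.655 in Ager_null replicate 1 (others from 13.848 to 13.944). H2-Bl read 7.6312 in WT replicate 4 (others from 6.7282 to 6.9856) and 9.7308 in Ager_null replicate 6 (others from 8.8741 to 9.1643). Riok2 read 7.1516 in Ager_Myd88_null replicate 4 (others from 7.7208 to 7.8093).

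Tedc2, also on chromosome 17, was the 1 named gene called on the interaction, where 2.41% of all tested genes were called. Tedc2 was named for its likeness to the brighter Gfer probe set over these same groups. Nothing is therefore read from that count. By limma Tedc2 was lower by 0.97 in Ager_null than in WT (adjusted p = 0.12). In Ager_Myd88_null it was lower by 3.02 than in Myd88_null (adjusted p = 0.0021). The interaction was -2.0514 (SE 0.53, adjusted p = 0.048 by limma). Its Ager_null livers ran from 6.94 to 8.94 and its Myd88_null livers from 9.83 to 9.94. The part of the chromosome stretch carried with the Ager allele was not tested. The call was lost at least with the S range as a block and without Myd88_null replicate 3 or 4 or Ager_Myd88_null replicate 3, where no gene was called on the interaction (1128 to 1863 genes at an unadjusted p under 0.05).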

How the results depend on the processing

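The Gfer differences kept their direction and moved by less than 1 SD under renewed quantile normalization, median centring, a floor at log2 4, the S range block, the replicate block and each array left out. The mean of both probe sets gave 0.66 for Ager_null against WT, 0.87 for Ager_Myd88_null against WT, 0.77 against Myd88_null and 0.21 against Ager_null. All 4 have the opposite sign to 1452272_a_at and are smaller than 1426995_a_at, which follows from averaging values that part.

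Counts of called genes moved more, and the cause was not tested. With the S range as a block, Ager_null against WT went from 107 to 59, Myd88_null against WT from 34 to 86, Ager_Myd88_null against Ager_null from 208 to 120 and against Myd88_null from 13 to 5, and the interaction from 205 to 0 (1128 at an unadjusted p under 0.05 by limma). Without the filter, Ager_null against WT gave 43, Ager_Myd88_null against Ager_null 91 and the interaction 76, with more genes tested. Median centring gave 70 for Ager_null against WT and 7 for Ager_Myd88_null against Myd88_null (5 higher and 2 lower, against 7 and 6). Quantile normalization gave 11 for Myd88_null against WT (4 higher and 7 lower, against 27 and 7), 46 higher and 41 lower for Ager_null against WT (against 71 and 36), and 89 and 136 for the interaction (against 49 and 156).

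The groups share replicate numbers, but only 9 of 25 same-numbered pairs deviated together with r over 0.1 (range -0.302 to 0.471), so the numbers were not taken as pairs. With the replicate block the counts were 138 for Ager_Myd88_null against Ager_null, 3 against Myd88_null, 46 against WT and 37 for the interaction, and 0 of the regeneration list.

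Leaving out each array gave 16 (without WT replicate 5) to 403 for Ager_null against WT, 10 (without Myd88_null replicate 4) to 987 for Myd88_null against WT, 18 (without Ager_Myd88_null replicate 3) to 368 for Ager_Myd88_null against Ager_null, 2 (without Myd88_null replicate 4 or Ager_Myd88_null replicate 3) to 446 against Myd88_null, and 0 (without Myd88_null replicate 3 or 4 or Ager_Myd88_null replicate 3) to 1739 for the interaction (1667 to 1863 at an unadjusted p under 0.05 where limma called 0). Each highest count came without Myd88_null replicate 1. Listed genes called ran from 0 to 7 for the relay, 0 to 2 for the factors, 0 to 6 for cluster assembly, 1 to 4 for the neighbours, 1 to 3 for the secretory oxidases and 0 to 3 for regeneration. With all arrays 3.66% of all genes were called in at least 1 of the 5 comparisons. That share is not given for each array left out, and the all-gene counts above moved widely. Nothing about the lists is therefore read from these ranges.

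Of the relay list, 0 were called with the S range block and 1 without the filter. Of cluster assembly, 0 were called with the floor or no filter and 2 with the S range block or the mean of probe sets. Of the neighbours, 1 was called with quantile normalization, 1 with 10 genes and 4 with 50 genes on each side. Of the secretory oxidases, 1 was called with the S range block, no filter or the mean of probe sets. Of regeneration, 0 were called with quantile normalization or the mean of probe sets. The share of all genes called in at least 1 comparison is not given for each of these settings, so these counts are no result about the lists.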
